A study of Mus musculus with 2 samples.

Results

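The genes that encode the subunits of the proteasome were followed in a chromatin accessibility study of mouse CD8+ T cells. The members were the autosomal protein-coding genes of the GENCODE annotation whose symbols begin with Psma, Psmb, Psmc or Psmd and a number, without the immunoproteasome genes Psmb8, Psmb9 and Psmb10. This gave 36 of 20807 autosomal protein-coding genes. Of these, 35 encode subunits of the 20S core or the 19S cap or their assembly chaperones, and Psmc3ip only shares the symbol stem: it encodes a cofactor of DNA recombination. Psmd10 is an X-linked gene and was not analysed here. The rule itself uses symbols only.

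The proteasome degrades proteins tagged with ubiquitin. Its 20S core is a barrel of alpha rings, which gate the entrance, around beta rings, which hold the proteolytic sites. The 19S cap binds ubiquitin chains, removes them and feeds the unfolded protein into the barrel with a ring of ATPases. Activated T cells make and turn over large amounts of protein, and in many cell types the transcription factor encoded by Nfe2l1 raises proteasome gene transcription when proteasome activity falls short.

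Accessible DNA was assayed by ATAC-seq: a transposase inserts sequencing adapters where chromatin is open. Both cultures held wild-type OT-I cells, transgenic T cells specific for the ovalbumin peptide OVA257-264, and received that peptide for 48 h. One culture had vehicle. The other had TAMos, CD11b+Ly6G-Ly6Chigh cells taken from spleens of mice with LLC (Lewis lung carcinoma) tumours, so the agent is a purified myeloid population and not a single molecule. About 50000 sorted CD8+ T cells went into each library, with 1 library for vehicle and 1 for TAMo. No difference below has a replicate check, no test between the cultures was made, and all intervals cover counting error only.

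The deposited lists held 127423 intervals for vehicle and 179414 for TAMo. Coverage at each summit, the highest point of an interval, was recovered in reads from the deposited fold and −log10 p. Depth was taken as the most frequent background, 4.71 reads for vehicle and 5.80 for TAMo, and all ratios are summit reads over these backgrounds, TAMo over vehicle, on the log2 scale. The sorted label was checked at the promoters of marker genes. All 7 T cell markers, among them Cd3e and Cd8a, had a promoter interval in both lists, with a summed coverage of 803 backgrounds in vehicle and 801 in TAMo. The sum joins opposite moves: Cd8b1 had a ratio of 0.45 (0.32 to 0.58) and Zap70 a ratio of −0.44 (−0.67 to −0.22). Over the 6 T cell markers with a ratio the median was −0.04. Of 7 myeloid markers, 2 had a promoter interval in vehicle and 4 in TAMo, with sums of 33.8 and 114 backgrounds. Lyz2 and Ly6c2 had none in either list, and Cd14 reached 141 reads in vehicle and 411 reads in TAMo. Itgam (118 reads), Csf1r (100 reads) and Adgre1 (31 reads) had one in TAMo only, and Fcgr1 (18 reads) in vehicle only. Of 4 B cell markers, 2 had one in each list, with sums of 10.6 and 25.3 backgrounds. The part of other cells in the results below was not tested.

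Promoter sequences of 6 members are shown because they mark the ends of the range described below or carry words discussed with it. They are RefSeq windows (GRCm38.p6, the assembly called mm10) of 250 bases before and 50 after an annotated start, written 5′ to 3′ along the gene. Capitals mark the antioxidant response core TGACNNNGC, the word bound by factors of the Nfe2l1 and Nfe2l2 family, and the ETS word CCGGAAG, each on either strand.

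Psmd12, the lowest promoter ratio, chr11:107479278-107479577, plus strand: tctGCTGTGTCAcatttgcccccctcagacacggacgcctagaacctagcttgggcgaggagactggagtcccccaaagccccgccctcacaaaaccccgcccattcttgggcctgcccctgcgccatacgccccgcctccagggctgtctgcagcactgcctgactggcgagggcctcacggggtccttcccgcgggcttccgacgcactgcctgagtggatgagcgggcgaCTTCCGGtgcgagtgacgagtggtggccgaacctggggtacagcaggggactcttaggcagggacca

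Psmb4, the highest promoter ratio, chr3:94886909-94887208, minus strand: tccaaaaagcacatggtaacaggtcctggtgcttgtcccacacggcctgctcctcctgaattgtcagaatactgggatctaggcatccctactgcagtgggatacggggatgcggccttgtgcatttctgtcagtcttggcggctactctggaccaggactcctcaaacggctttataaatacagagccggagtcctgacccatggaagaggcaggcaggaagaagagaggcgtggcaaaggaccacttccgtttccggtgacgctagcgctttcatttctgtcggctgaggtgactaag

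Psma5, the highest promoter coverage, chr3:108256676-108256975, plus strand: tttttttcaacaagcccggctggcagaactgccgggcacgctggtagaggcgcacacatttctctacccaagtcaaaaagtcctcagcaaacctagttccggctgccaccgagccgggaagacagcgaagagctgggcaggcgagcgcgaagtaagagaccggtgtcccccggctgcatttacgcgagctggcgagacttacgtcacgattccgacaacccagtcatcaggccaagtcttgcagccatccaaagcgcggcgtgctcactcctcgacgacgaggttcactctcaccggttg

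Psma6, the start site with intervals, chr12:55398575-55398874, plus strand: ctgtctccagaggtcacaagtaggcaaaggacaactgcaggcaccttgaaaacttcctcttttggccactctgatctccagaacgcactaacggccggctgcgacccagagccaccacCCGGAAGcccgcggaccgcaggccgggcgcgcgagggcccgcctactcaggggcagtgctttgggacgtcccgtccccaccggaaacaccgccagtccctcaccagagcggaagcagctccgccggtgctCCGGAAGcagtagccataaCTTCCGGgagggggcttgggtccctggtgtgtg

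Psmb5, a proteolytic subunit, chr14:54617946-54618245, minus strand: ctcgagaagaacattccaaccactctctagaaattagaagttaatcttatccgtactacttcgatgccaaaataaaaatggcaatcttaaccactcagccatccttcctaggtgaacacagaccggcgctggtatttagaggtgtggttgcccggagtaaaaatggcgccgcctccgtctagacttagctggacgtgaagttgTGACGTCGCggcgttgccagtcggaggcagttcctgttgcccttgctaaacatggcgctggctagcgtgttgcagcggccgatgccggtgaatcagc

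Psmb6, a proteolytic subunit, chr11:70525107-70525406, plus strand: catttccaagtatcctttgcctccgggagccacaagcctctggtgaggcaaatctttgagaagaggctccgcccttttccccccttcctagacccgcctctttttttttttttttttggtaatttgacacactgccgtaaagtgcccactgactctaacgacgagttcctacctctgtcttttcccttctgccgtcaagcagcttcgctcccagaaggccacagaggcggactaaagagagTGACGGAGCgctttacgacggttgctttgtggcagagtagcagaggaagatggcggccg

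The antioxidant response core began 47 bases before the start in Psmb5, at -47, and at -9 in Psmb6. In Psmd12 it lay at the far end of the window, at -247. The Psma6 window held 3 ETS words, Psmd12 held 1, and the windows of Psmb4 and Psma5 held neither word. In both libraries the whole Psmd12, Psma5 and Psmb6 windows lay inside called intervals, and of the Psmb4 window 243 bases did in vehicle and all 300 in TAMo.

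Nearly all proteasome genes had open promoters in both cultures. Within 1 kb of an annotated start, 34 of 36 members had an interval in vehicle, against 66.1% of all genes, and 35 had one in TAMo, against 68.7%. The exceptions were the tissue-restricted genes. Psmb11, which encodes the beta subunit of the thymus epithelium (ENSMUSG00000072423), had a promoter interval in neither list, and its only distal interval lay in its UTR, 3041 bp downstream of the start, at 23 reads in vehicle and 22 reads in TAMo. Psma8, the alpha subunit gene of male germ cells (ENSMUSG00000036743), had no promoter interval in vehicle and 1 of 32 reads in TAMo, on chromosome 18 from 14706111 to 14706352. The next lowest member in TAMo, Psmd9, had 268 reads. Where no interval was listed, nothing passed the caller, which does not show closed chromatin; the weakest summit anywhere in the vehicle list had 13 reads.

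Strongest promoter summits lay close to the start sites. Of the 34 members with a vehicle summit, 32 had it within 250 bp of a start and 27 within 100 bp. Of the 35 with a TAMo summit, all 35 had it within 250 bp and 31 within 100 bp. By annotation, 15 of the vehicle summits lay between genes, 14 in a UTR, 3 in an intron and 2 in a coding exon. The corresponding TAMo numbers were 15, 13, 5 and 2. The strongest intervals of both lists overlapped for 32 members, and their summits then differed by a median of 5 bp and at most 34 bp. Median interval width was 852 bp in vehicle and 836.5 bp in TAMo, against 834 bp and 866 bp over the 12932 genes with overlapping promoter intervals.

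Coverage differed more among members than between the cultures. Over those 32 members, promoter summits ranged from 201 reads at Psmd9 to 968 reads at Psma5 in vehicle, and from 268 reads to 1166 reads at the same 2 genes in TAMo. Their medians were 578.5 reads for vehicle and 669.5 for TAMo, against 438 reads and 542 reads over all 12932 genes. In vehicle, 20 of the 32 lay above the median gene, and in TAMo 19 did. Psma5 exceeded 94.9% of all promoters in vehicle and 93.4% in TAMo, and Psmd9 exceeded 23.6% and 23.8%.

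**Figure D1:**
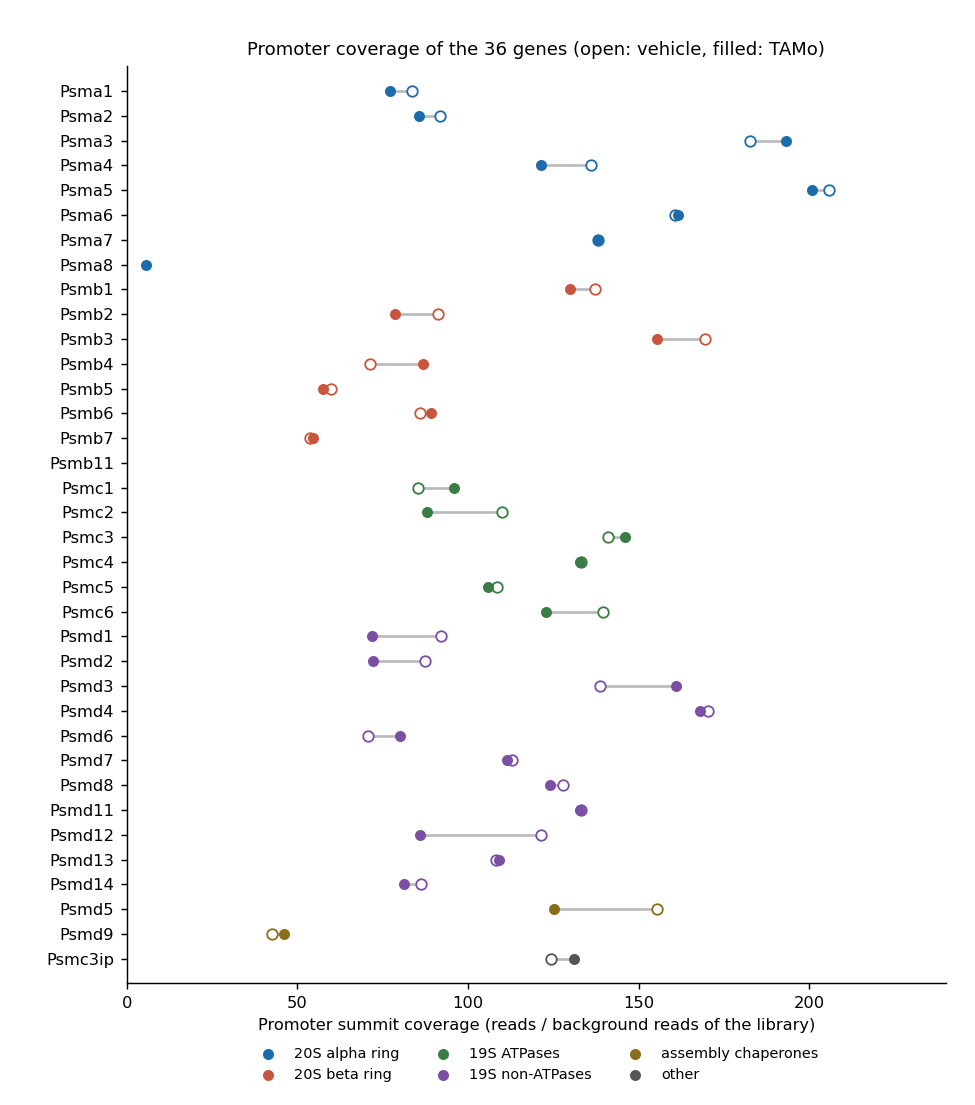
Promoter summit coverage of each of the 36 genes, as reads over the library's background (x axis), in vehicle (open circles) and TAMo (filled circles), coloured by place in the complex; there is 1 library per circle. Most pairs sit close together, from Psmd9 at 42.7 and 46.2 to Psma5 at 206 and 201; Psma8 has only a TAMo circle and Psmb11 none.

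The promoters of the proteasome genes had nearly the same coverage in both cultures. The median log2 ratio over the 32 members was −0.03, with quartiles of −0.12 and 0.05 and a range of −0.50 to 0.28. Over all 12932 genes the median was 0.03, with quartiles of −0.13 and 0.22. Of the 32, 1 member had a log2 ratio below −0.32, the fold used for calling a promoter lower, as did 9.86% of all genes. Above 0.32 were 0 members and 17.6% of all genes. With all summits of a promoter summed in place of the strongest, 3 members lay below −0.32 and 5 above 0.32. The shares of all genes by the summed measure are not given here. The 9.86% and 17.6%, and the counts that follow, are for the strongest summit. At 1.5-fold, 0 members were lower and 0 higher, against 3.26% and 8.76% of all genes. The 95% counting interval lay below 0 for 7 members, against 17.8% of all genes, and above 0 for 2, against 26.1%. Among the 3680 genes whose vehicle coverage lay between the members' quartiles, 406 and 654 reads, the median was −0.01 with quartiles of −0.16 and 0.14. The size of the median rests on the scaling. With the median of all shared regions, 0.28, set to 0, the members' median was −0.30 and 13 of 32 lay below −0.32. That scaling lowers the ratio of every gene by the same 0.28. The share of all genes below −0.32 under it is not given here, so the 13 cannot be set against 9.86%.

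**Figure D2:**
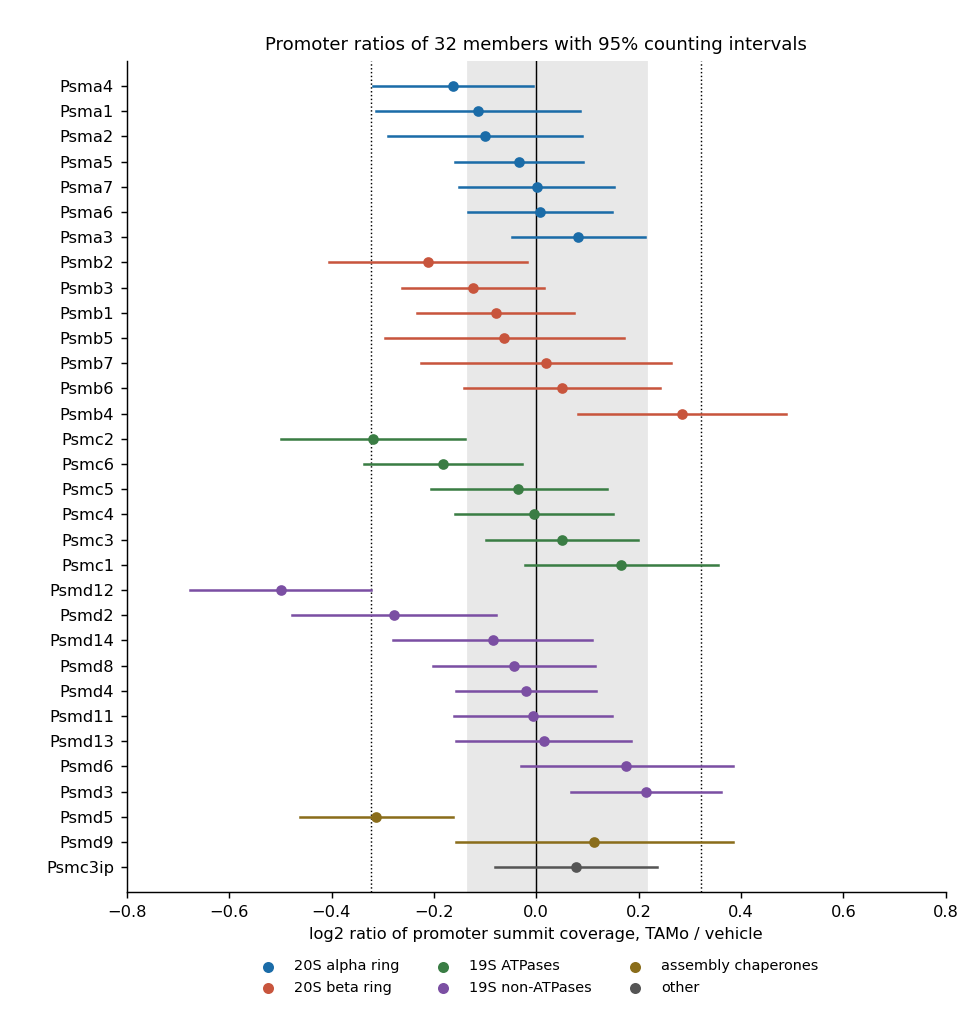
Log2 ratio of promoter summit coverage, TAMo over vehicle (x axis), for the 32 members with overlapping intervals, with 95% exact binomial counting intervals from the reads of 1 library each. Grey marks the quartiles over 12932 genes and dotted lines mark −0.32 and 0.32; Psmd12 alone lies past a dotted line.

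The alpha ring genes spanned the narrowest range. Psma8 aside, the 7 members ran from −0.16 to 0.08 with a median of −0.03. Psma5 had 968 reads in vehicle and 1166 reads in TAMo (ratio −0.03, −0.16 to 0.09). Psma3 had 859 and 1121 reads (0.08, −0.05 to 0.21). Both are among the most open promoters of the family, and neither interval left 0. Psma4, with 640 and 705 reads, had the lowest ratio of the ring, −0.16, and its interval from −0.32 to −0.01 ended just below 0. Psma1 (−0.11), Psma2 (−0.10) and Psma7 (0.00) lay between them. Psma6 has a pair of annotated starts, at 55384222 and 55398775 on chromosome 12. No interval of either list lay within 1 kb of the first, and the second had 756 reads in vehicle and 937 reads in TAMo (0.01, −0.13 to 0.15).

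The beta ring held both the proteolytic subunits and the highest ratio. The 7 members with a ratio had a median of −0.06. Psmb6, the caspase-like subunit gene, had 405 reads in vehicle and 517 reads in TAMo (0.05, −0.14 to 0.24). Psmb7, the trypsin-like one, had 253 and 316 reads (0.02, −0.22 to 0.26). Psmb5, the chymotrypsin-like one and the target of proteasome inhibitor drugs, had 282 and 333 reads (−0.06, −0.30 to 0.17). With depth taken from the background, each of these 3 intervals held 0, and both −0.32 and 0.32 lie outside each. Scaled to the median of all shared regions, each of the 3 ratios would be 0.28 lower. Where these intervals lie thus rests on the scaling. Psmb4, a non-proteolytic beta subunit gene (ENSMUSG00000005779), had 335 reads in vehicle and 503 reads in TAMo, a ratio of 0.28 (0.08 to 0.49) or 1.22-fold. Its interval is on chromosome 3 from 94886436 to 94887151 in vehicle, with the summit in the UTR 6 bp downstream of the start. Psmb2 was at the other end with 429 and 457 reads (−0.21, −0.40 to −0.02). Psmb1 (−0.08) and Psmb3 (−0.12) had intervals that held 0.

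Of the 6 ATPase genes, which encode the ring that unfolds substrates, 2 had an interval below 0. Psmc2 had 517 reads in vehicle and 511 reads in TAMo, a ratio of −0.32 (−0.50 to −0.14) after scaling by depth and just short of the call. Its start lies 32 bp from that of Dnajc2 on the opposite strand, so its promoter belongs to both genes. Psmc6 had 657 and 714 reads (−0.18, −0.34 to −0.03). Psmc1 had 402 and 556 reads and the highest ratio of the ring (0.17, −0.02 to 0.35). Psmc3 had 663 and 847 reads (0.05, −0.10 to 0.20), Psmc4 had 626 and 770 reads (−0.00, −0.16 to 0.15) and Psmc5 had 510 and 614 reads (−0.03, −0.21 to 0.14). The median of the 6 was −0.02, and 0 of them lay past the call.

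The non-ATPase genes of the 19S cap showed the widest range. Psmd12 (ENSMUSG00000020720), a scaffold subunit gene of the lid, had 572 reads in vehicle and 499 reads in TAMo, a ratio of −0.50 (−0.68 to −0.32) or 0.707-fold. It was the only one of the 32 ratios below −0.32, at an interval on chromosome 11 from 107479240 to 107479854 in vehicle with its summit in the UTR. Psmd2, which encodes a large docking subunit for ubiquitin-like domains, had 411 and 418 reads (−0.28, −0.48 to −0.08). Psmd4, a ubiquitin receptor gene, had 802 and 975 reads (−0.02, −0.16 to 0.12). Psmd14, which encodes the deubiquitinase that strips chains from substrates, had 406 and 472 reads at its start (−0.09, −0.28 to 0.11). Psmd3 was, with Psmb4, a member whose whole counting interval lay above 0, with 653 and 934 reads (0.21, 0.07 to 0.36). Psmd6 had 333 and 464 reads (0.18, −0.03 to 0.38). Psmd8 (−0.04), Psmd11 (−0.01) and Psmd13 (0.01) had intervals that held 0.

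At Psmd1 and Psmd7 the strongest interval was a different one in each list, so neither is among the 32. Each promoter has a pair of intervals that could be matched one by one, a step added after the values were seen. At Psmd1, the gene of another large docking subunit, the upstream interval had 434 reads in vehicle and 408 reads in TAMo (−0.39, −0.59 to −0.19). Its interval at the start, on chromosome 1 from 86064543 to 86065142, had 428 and 417 reads (−0.34, −0.54 to −0.14), so both lay below −0.32. At Psmd7, which encodes the partner of the Psmd14 deubiquitinase, the interval at the start had 521 and 646 reads (0.01, −0.16 to 0.18). The one upstream, at −904 bp in vehicle, had 532 and 574 reads (−0.19, −0.37 to −0.02).

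Other members had weaker intervals beside the strongest one that touch the same window. Over 10 of these that could be matched one to one, at 8 genes, ratios ran from −1.08 to 0.56, with 1 below −0.32 and 1 above 0.32. Shares over the weaker promoter intervals of all genes are not given here, so these counts cannot be set against a background. The lowest lay in an intron of Psmd14, on chromosome 2 from 61712656 to 61712950 in vehicle, with its TAMo summit 1114 bp downstream of the start. It had 261 reads in vehicle and 152 reads in TAMo (−1.08, −1.38 to −0.79). The highest lay 849 bp downstream of the second Psma6 start, with 138 and 251 reads (0.56, 0.26 to 0.87).

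Neither assembly chaperone gene among the members passed the call. Psmd5 had 732 reads in vehicle and 727 reads in TAMo (−0.31, −0.46 to −0.16). Psmd9, the least open promoter of the 32, had 201 and 268 reads (0.11, −0.16 to 0.38). Psmc3ip, which is no proteasome gene, had 585 and 761 reads (0.08, −0.08 to 0.23).

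Of the 36 members, 7 shared the promoter window with a start site of another protein-coding gene on the opposite strand, 19.4%, against 10.8% of all genes. They were Psma2 with Mrpl32, Psma4 with AY074887, Psma7 with Ss18l1, Psmb1 with Tbp, Psmc2 with Dnajc2, Psmc5 with Ftsj3 and Psmd13 with Sirt3, at 32 to 208 bp. Their ratios ran from −0.32 to 0.01. Where the strongest interval lies between the starts of both genes, its reads cannot be divided between them. At Psmb1 it does not: the 646 and 754 reads come from the start at 15498339, and a separate interval at 15499751, the start next to Tbp, had 552 and 644 reads (−0.08, −0.25 to 0.09).

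The member promoters were compared with other promoters by their letters. RefSeq windows were found for 29 members, 31 windows in all, and for 19174 windows of protein-coding genes. Psma8, Psmb1, Psmb2, Psmb7, Psmc3, Psmd3 and Psmd7 were not among them. Median GC content was 57.3% in members and in all windows, and the median number of CpG pairs was 20 in members and 14 in all. The ETS word was in 12 of 31 member windows, 38.7%, against 12.1% of all windows. The genes were Psma6, Psmc1, Psmc2, Psmc3ip, Psmc6, Psmd2, Psmd4, Psmd6, Psmd11, Psmd12 and Psmd13. Psmc2 counts with both of its windows, and Psmc3ip is no proteasome gene. The antioxidant response core was in 5, 16.1%, against 13.2%: Psmb5, Psmb6, Psmc6, Psmd12 and Psmd9. Shares of other words, read on both strands, were 54.8% against 48.3% for the Sp/Klf word GGGCGG, 38.7% against 37.5% for the NF-Y word CCAAT and 6.45% against 1.91% for the YY1 word AAGATGGCG. They were 3.23% against 2.47% for the nuclear respiratory factor word GCGCATGCG and 9.68% against 12.1% for the TATA box TATAAA. The CRE word TGACGTCA was in 0 of 31 member windows and in 2.36% of all. Each word was counted on its own, so words that overlap on a sequence count for both, and the shares are descriptions of these windows.

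Other genes of the pathway also had nearly level promoters. All 25 found, from the immunoproteasome to ubiquitin itself, had a promoter interval in both lists. Of the 24 with a ratio, 1 lay below −0.32, against 9.86% of all genes. It was Psmg3, an assembly chaperone gene, with 180 reads in vehicle and 155 reads in TAMo (−0.52, −0.84 to −0.20). Above 0.32 lay 0, against 17.6% of all genes, and the median was −0.05. The immunoproteasome genes, which interferon induces in place of the proteolytic beta subunits, gave 577 and 576 reads at Psmb8 (−0.31, −0.47 to −0.14). Psmb9 had 801 and 884 reads (−0.16, −0.30 to −0.02) and Psmb10 had 382 and 479 reads (0.02, −0.17 to 0.22). Nfe2l1 had 1204 and 1597 reads (0.11, −0.00 to 0.21), the highest promoter coverage of the genes listed here, and the related factor gene Nfe2l2 had 1121 and 1175 reads (−0.23, −0.35 to −0.12).

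Away from promoters coverage was lower and the ratios spread more widely. An interval outside all promoter windows was given to a member when the start nearest to its strongest summit, within 100 kb, was the member's. This gave 124 intervals covering 37.62 kb in vehicle near 28 members and 181 covering 55.04 kb in TAMo near 29. Of these, 19 of 124 overlapped no TAMo interval, 15.3%, against 13.8% of all such vehicle intervals. In TAMo, 74 of 181 overlapped no vehicle interval, 40.9%, against 41.6% of all. With the weakest TAMo intervals dropped until both lists were equally long, the counts were 124 in vehicle and 118 in TAMo. Of these, 39 and 35 had no partner. The dropping itself removes TAMo intervals and takes partners from vehicle intervals, so these counts cannot decide on an excess in TAMo. Shares over all distal intervals at equal length are not given here. In the full lists, most intervals without a partner were weak. The median was 32 reads for the 19 and 43 reads for the 74. Of the distal intervals near members among the 50000 strongest of their list, 0 of 44 in vehicle and 2 of 49 in TAMo had no partner. The share over all distal intervals of that strength is not given here. The 2 lie in introns of Psmb7 on chromosome 2, from 38621536 to 38622025 with 291 reads and from 38607630 to 38608199 with 258 reads. Psma8 had 7 distal intervals in TAMo, at 27 to 78 reads, and 0 in vehicle.

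In 102 regions open in both lists near 26 members, the median log2 ratio was 0.20, with quartiles of −0.33 and 0.77. Over all 74243 distal shared regions within 100 kb of a start it was 0.37, with quartiles of −0.11 and 1.00. Coverage was at least 2-fold higher in TAMo at 22 of the 102, 21.6%, against 25.0% of all, and at least 2-fold lower at 1, against 3.43%. With the median of all shared regions set to 0 the members' distal median turned to −0.08. The shares near the members are thus close to those of distal regions elsewhere. Nearness assigns a region to a gene only by distance, and whether it acts on that gene was not measured.

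**Figure D3:**
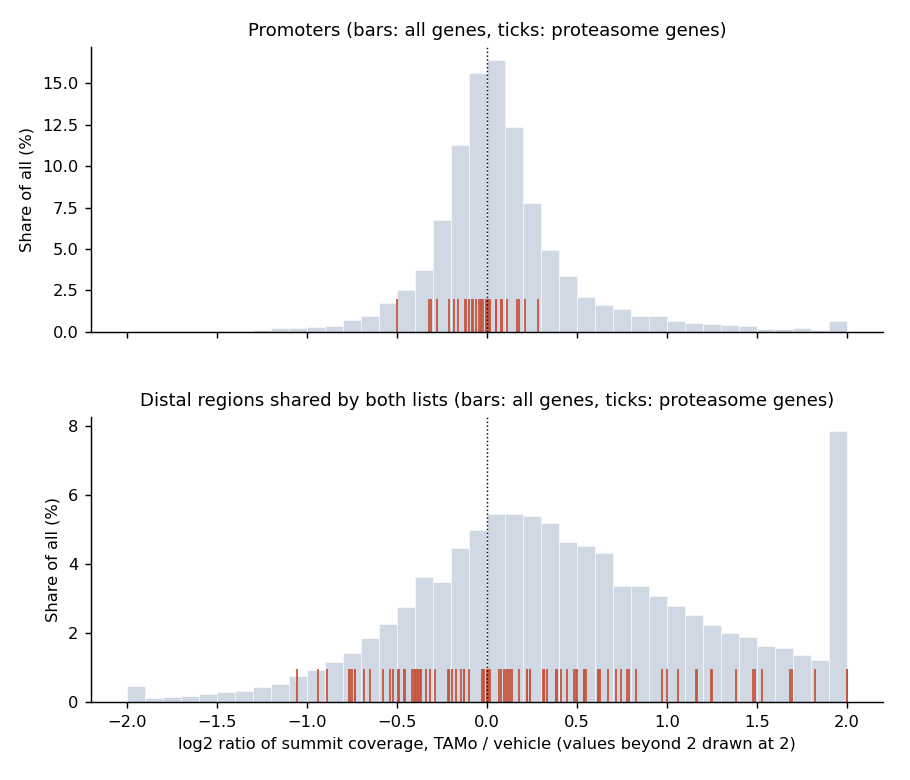
Distribution of log2 ratios of summit coverage, TAMo over vehicle, over all 12932 promoters (upper) and all 74243 distal shared regions (lower) as bars in percent, with the 32 member promoters and 102 member distal regions as ticks. The promoter ticks stay between −0.50 and 0.28, and the distal ticks start at −1.06; values beyond 2 are drawn at 2.

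The 22 higher regions lay near 8 members, 3492 to 62747 bp from a start. By annotation, 13 were in introns, 7 between genes and 2 in UTRs. The Psma6 surroundings held 6 of them. There the interval on chromosome 12 from 55365045 to 55365810 lay in an intron of 1110008L16Rik, 18746 bp upstream of the first Psma6 start. That start, at 55384222, is the one without an interval within 1 kb. The region had 18 reads in vehicle and 428 reads in TAMo, 19.3-fold (log2 4.27, 3.59 to 5.04). Its vehicle count is near the lowest of that list, 13 reads. The summits compared lie apart, at 55365590 in vehicle and 55365476 in TAMo. Downstream, from 55433860 to 55434304, the counts were 53 and 477 reads (2.87, 2.46 to 3.30), and from 55432348 to 55432867 they were 70 and 350 reads (2.02, 1.65 to 2.41). The next nearest gene to both is Nfkbia, the inhibitor of NF-kB, at 58576 and 60173 bp. The other 3 had 79 and 272 reads (1.48), 27 and 96 reads (1.53) and 19 and 49 reads (1.06). At a site in an intron of Psma6 from 55392581 to 55393369, the libraries were close, with 631 and 821 reads (0.08, −0.07 to 0.23). The Psma6 promoter between these regions had a ratio of 0.01.

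Psmb6 had 1 distal region, from 70528614 to 70529307 on chromosome 11, 3492 bp downstream of the start and past the end of the gene. It had 65 reads in vehicle and 665 reads in TAMo, 8.30-fold (3.05, 2.68 to 3.44), while the promoter ratio was 0.05. The next start, of Gm40193, is 4061 bp away. Psmb2 had a region in its own intron from 126694970 to 126695762 on chromosome 4, with 29 and 288 reads (3.01, 2.46 to 3.61). Another in that gene, 5628 bp from the start, had 62 and 171 reads (1.16). Psmb3 had a pair on chromosome 11 at Pip4k2b, from 97718299 to 97718778 with 60 and 484 reads (2.71, 2.32 to 3.12) and from 97719058 to 97719467 with 118 and 615 reads (2.08, 1.79 to 2.38). The Psmb3 region in its own intron, 6917 bp from the start, had 48 and 32 reads (−0.89).

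Psmb7 had 13 shared regions, of which 4 were at least 2-fold higher. In its introns, from 38621172 to 38621479 on chromosome 2, the summit had 48 reads in vehicle and 352 reads in TAMo (2.57, 2.13 to 3.04). From 38619262 to 38619687 it was 169 and 739 reads (1.83, 1.58 to 2.08). The other 2 lay in Nek6, with 25 and 100 reads at 51809 bp (1.70) and 32 and 127 reads at 62747 bp (1.69). Psma1 had 3, of which the strongest in TAMo, from 114316397 to 114316861 on chromosome 7 in an intron of 4933406I18Rik, had 299 and 873 reads (1.24, 1.05 to 1.44). Its neighbour in that intron had 192 and 563 reads (2.38-fold). A region between genes, from 114297180 to 114297622, had 40 and 233 reads (2.24, 1.75 to 2.76). Psmc1 had 2, with 23 and 74 reads (1.38) at 14974 bp and 32 and 79 reads (1.00) at 25855 bp. Both at Psmd6 lay in introns of Atxn7, with 149 and 517 reads (1.49) and 30 and 83 reads (1.17). Another Atxn7 intron interval was the 1 region at least 2-fold lower in TAMo, from 14091297 to 14091698 on chromosome 14, with 123 and 73 reads (−1.06, −1.49 to −0.63). None of these 8 members had a promoter ratio past −0.32 or 0.32.

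In vehicle the strongest distal intervals were the one in Psma6 (631 reads), the one 5075 bp upstream of Psmd1 (466 reads) and one in a coding exon of Psmc2 (437 reads). An interval in Atxn7 near Psmd6 (399 reads) and one upstream of Psmc1 (394 reads) followed. Their regions had ratios of 0.08, −0.65, −0.10, −0.76 and −0.03. The Psmc2 interval overlaps the second RefSeq promoter window of that gene, from 21786497 to 21786796 on chromosome 5. It counts as distal because the GENCODE set used for the starts has no Psmc2 start there. In TAMo the strongest were those described above near Psma1 (873 reads), Psma6 (821 reads), Psmb7 (739 reads), Psmb6 (665 reads) and Psmb3 (615 reads). The Psma6 interval is in both sets, and intervals picked for a high count in 1 library lean towards that library in their ratio. Psmd12 had 4 shared distal regions from −0.50 to 0.09.

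**Figure D4:**
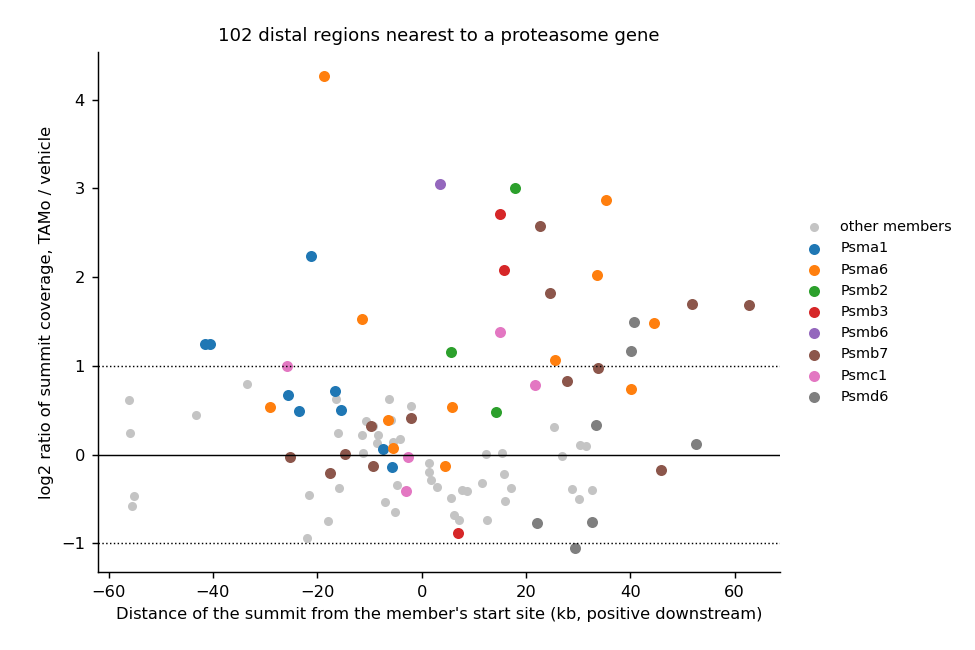
Log2 ratio of summit coverage, TAMo over vehicle (y axis), of 102 distal shared regions against the distance of the summit from the nearest member start in kb (x axis, positive downstream); colours mark the 8 members with a region at least 2-fold higher, grey the others, dotted lines 2-fold. Each point comes from 1 library per culture; the highest, at 4.27, lies near Psma6.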

How the data were processed

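ATAC-seq peak lists of 2 libraries, vehicle and TAMo, were analysed. Trimmomatic 0.36, Bowtie2 and MACS2 with the mm10 build are listed in the submitters' processing notes; no source used here gives read shifting, duplicate removal or caller settings. Each library has a deposited list of its own. Each deposited row gives, as the authors' own values, a score (10 times the −log10 q), a fold enrichment (a ratio over local background), a −log10 p and a −log10 q. Rows with 1 interval and several summits were counted as 1 interval. Summit coverage in reads was solved from the deposited fold, (coverage + 1)/(background + 1), and the deposited −log10 p, a Poisson tail. It came out whole within 0.01 reads for 99.98% of rows in each library, leaving out 30 and 48 rows. The most frequent background was used as depth. Recovery was tested on simulated data. The lists used here cover chromosomes 1 to 19. Lowest −log10 q was 1.32 and 1.34. The comparison of promoters used the strongest summit within 1 kb of a start (GENCODE M21 basic set) and only genes whose intervals overlapped between lists. Ratios carry 95% exact binomial intervals. Reads are not independent molecules. With 1 library per group, genes were called by fold (log2 0.32 at promoters, 2-fold in distal regions) without a test. Letters were searched in RefSeq promoter windows on chromosomes 1 to 17 and 19. The members, lists and rules were chosen with earlier results of these data known. Genes named in full were the 5 lowest and 5 highest ratios, proteolytic subunits, ATPases, ubiquitin-handling subunits, tissue-restricted members and those without a ratio; distal regions past 2-fold or strong in 1 list are described by gene. Alternatives covered scaling, window, summit choice, −log10 q of 10 or more, fold, list length and distance. Python 3.11.15, numpy 2.4.6, pandas 2.3.3 and scipy 1.17.1 were used.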

Additional observations from a re-analysis of the deposited data

How the results depend on the processing

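No paired analysis was possible because there is 1 library per culture. Over 10 results and 62 alternative values, 47 stayed within 1.5 times a count or, for a median, within 0.03 at promoters and 0.04 in distal regions on the log2 scale, 14 moved beyond that and 1 changed sign. The limits for medians are the counting half-width of a typical ratio, 0.16 and 0.43, over the square root of the number of ratios, and were set after seeing the data. The change of sign was that of the distal median, from 0.20 to −0.08 when scaled to the median of all shared regions. Scaled to the median of all shared regions, the members' promoter median moved from −0.03 to −0.30 and the number below −0.32 from 1 to 13; scaled to the median of all promoters they were −0.06 and 3. It was 3 with all summits of a promoter summed, 2 with every gene that had an interval in both lists, which adds Psmd1, 0 at 1.5-fold and 7 by a counting interval below 0. The number higher moved from 0 to 5 with summed summits and to 2 by a counting interval above 0. Both scalings lower the ratio of every gene alike. Shares of all genes under them, or with summed summits, are not given here. Vehicle distal intervals without a TAMo partner moved from 19 to 7 at a −log10 q of 10 or more and to 39 with lists of equal length. With equal length the TAMo distal intervals moved from 181 to 118 and those without a vehicle partner from 74 to 35. Vehicle then had more of both, but dropping TAMo intervals moves these counts that way by itself. The cause of these moves was not tested. Promoters read through any overlapping interval, or without members that share the window, were tried after seeing the data and gave medians of −0.03 and −0.01.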
